A study of Mus musculus with 4 samples.

Results

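Il5, Il13 and Csf2 encode the secreted proteins for which group 2 innate lymphoid cells (ILC2) are best known, together with amphiregulin. They were chosen by name, and all 3 were among the 11352 gene rows named for plate 1. Single ILC2 had been sorted from mouse pancreas (genotype label C57BL6J) into 4 plates of 384 wells and sequenced by SORT-seq, which builds on CEL-seq2 and counts reads from the 3' end of each transcript. The cells carried KIKR, a protein that turns from green to red under violet light, and the sort record calls each well red (photoconverted), green (non-photoconverted) or empty. Plate 1 held 12 photoconverted cells, 151 non-photoconverted cells and 221 empty wells, all given 1 batch in the sort record. The labels give no feeding state, animal, age or violet light protocol for any cell, and all cells share the genotype label. The row names could be used on plate 1 only, so the cells compared here come from 1 of the 4 samples. There is then 1 sample per colour, and no test or p-value is given.

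Interleukin-5, the product of Il5, drives the growth, survival and release of eosinophils. Interleukin-13, the product of Il13, acts on epithelium, smooth muscle and macrophages. Granulocyte-macrophage colony-stimulating factor (GM-CSF), the product of Csf2, acts on macrophages, dendritic cells and granulocytes. In ILC2 these genes are known to be switched on by alarmins such as interleukin-33 and interleukin-25, on a background set by the transcription factor GATA3. Tissue ILC2 are known to differ from each other in which of these cytokines they make.

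The genes lie on chromosome 11 (mm10, gene models of GENCODE M21, 4 exons each). Il13 runs from 53631324 to 53634702 on the minus strand, Il5 from 53720794 to 53725106 on the plus strand and Csf2 from 54247271 to 54249667 on the minus strand. Il13 and Il5 are 86.1 kilobases apart, with Rad50 between them, and Csf2 lies 522 kilobases beyond Il5. Il4, a further type 2 cytokine gene, ends 12.7 kilobases from Il13.

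Upstream sequence is shown for Il5 and Il13, whose RefSeq start sites stand where GENCODE places them. These are the 150 bases before the start site (RefSeq, GRCm38.p6), chr11:53720644-53720793 on the plus strand for Il5 and chr11:53634703-53634852 on the minus strand for Il13. Capitals mark AGATAA or AGATAG, letters that the GATA family can bind, and GGAAA, the core letters of NFAT and related factors, on either strand.
Il5: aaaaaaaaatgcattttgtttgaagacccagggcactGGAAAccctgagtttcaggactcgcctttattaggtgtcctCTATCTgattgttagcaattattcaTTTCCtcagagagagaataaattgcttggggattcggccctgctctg
Il13: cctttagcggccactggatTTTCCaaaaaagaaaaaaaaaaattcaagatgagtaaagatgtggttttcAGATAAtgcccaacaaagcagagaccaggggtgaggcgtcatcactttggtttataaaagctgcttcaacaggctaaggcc
AGATAA occurs in 5.65% of 32851 such upstream windows in RefSeq and AGATAG in 4.34%. Il13 holds the first once and Il5 the second once, on the minus strand. GGAAA occurs in 37.6% of the windows, with 2 matches at Il5 and 1 at Il13. TGANTCA, letters of AP-1, had 0 matches on either strand at both genes and occurs in 4.24% of windows. For Csf2 the RefSeq and GENCODE start sites lie 232 bases apart, so its upstream window is not shown. A match is a description of letters and not of a bound site.

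The 3' ends, from which the reads come, differ in AU-rich elements, the ATTTA repeats bound by mRNA decay factors such as Zfp36. The 30 bases of each 3' untranslated region with the most repeats (GENCODE M21, ATTTA in capitals, overlapping matches counted) are given to show this.
Csf2: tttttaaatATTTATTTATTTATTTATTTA
Il5: gataccatatgctgtttccATTTAtATTTA
Il13: atcttATTTAttatggttgtgtgttATTTA
The 3' untranslated region of Csf2 has 317 bases with 9 ATTTA, more than 91.4% of the 21020 genes with such a region. Il5 has 7 in 1092 bases and Il13 has 3 in 741 bases, against a median of 1 over all genes. Csf2 alone of the 3 holds the longer ATTTATTTA, 5 times, which 6.16% of genes hold at least once.

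Cells needed at least 500 genes with a read and under 25% mitochondrial reads. This left 8 photoconverted cells (56539 to 1677643 reads of genes, median 540662) and 98 non-photoconverted cells (17825 to 1274117, median 187689.5). Their red fluorescence was 2202 to 29626 and -2415 to 1527 arbitrary units. Photoconverted cells had a median of 2748.5 genes and non-photoconverted cells 1637. Each photoconverted cell was therefore also set against the 5 non-photoconverted cells nearest in number of genes, the cytokines left out of that number. These depth-matched cells were 29 distinct cells with a median of 2718.5 genes. The deepest photoconverted cell had 5129 genes and the deepest non-photoconverted cell 4480, so depth was not fully matched for that cell. The label ILC2 was checked on 12 markers: at least 3 were detected in 97 of 106 cells, Gata3 in 90 and Il1rl1, the interleukin-33 receptor, in 76. The least frequent of the 12 were Thy1 in 36, Il17rb in 31 and Rora in 8. Of T cell markers, Cd3e was detected in 0 cells, Cd3d in 3 and Cd3g in 11.

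Detection meant at least 16 reads in a cell. This limit fell in a gap for Il5 and Il13 but not for Csf2. The lowest Il5 value above it was 31 reads and the highest below it 13. For Il13 these were 42 and 5. For Csf2 they were 17 and 15, and 12 cells held 4 to 15 reads, so its share depends more on the limit. In the 221 empty wells the highest value was 8 reads for Il5, 2 for Il13 and 2 for Csf2, and 0 wells reached 16 reads, which allows a share of up to 1.36%. Values of 1 to 3 reads were present in 21 cells for Il5 and in 11 for Il13, the range also found in empty wells. Reads are PCR copies and not molecules, and intervals are exact 95% binomial intervals. The share that a count of 0 allows is 3 counts of the total. Both cover counting error of cells only.

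**Figure D1:**
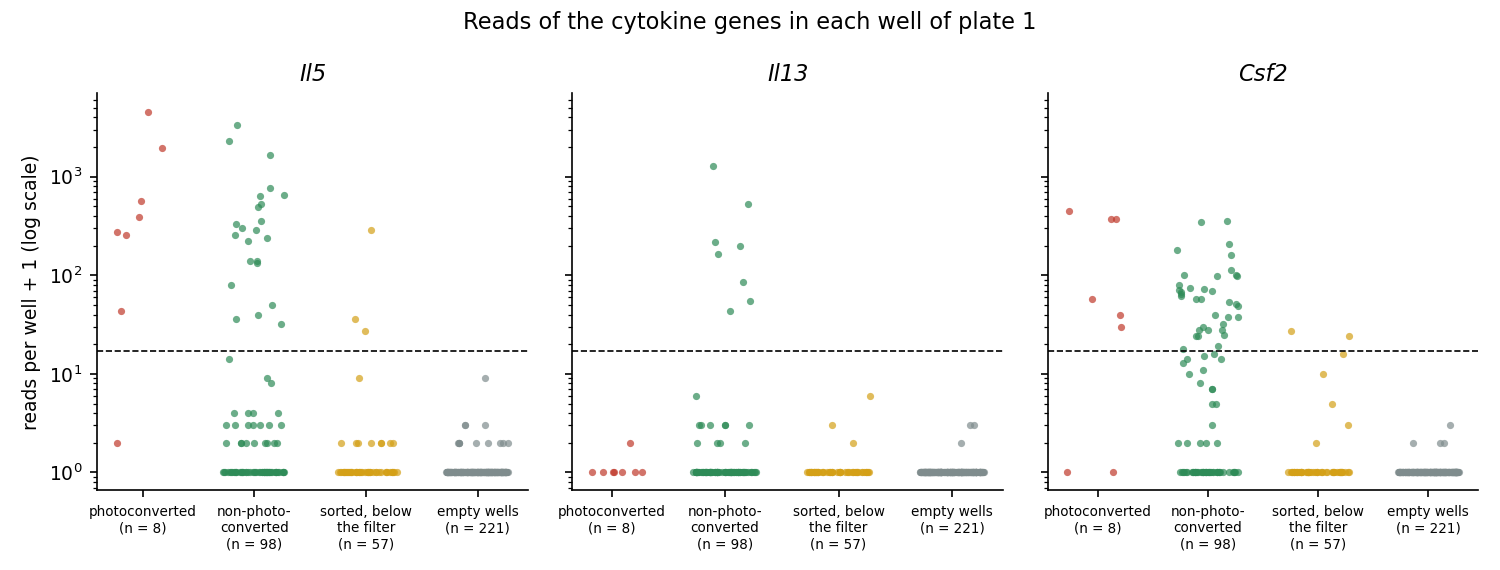
Reads of Il5, Il13 and Csf2 in each well of plate 1, plotted as reads + 1 on a log axis, for photoconverted cells, non-photoconverted cells, sorted wells below the filter and empty wells. The dashed line is 16 reads: empty wells stay at 8 reads or fewer, Il5 and Il13 leave a gap at the line and Csf2 does not.

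Il5 was detected in a higher share of photoconverted than of depth-matched cells. In the 8 photoconverted cells, in plate order, it stood at 442, 655, 3405, 2732, 4.24, 763, 543 and 743 CPM, a gene's reads scaled to 1000000 reads of genes in its cell. All but the fifth cell, which had 1 read, were above the limit, so 7 of 8 cells (47.3 to 99.7%) held Il5. Of the non-photoconverted cells 23 of 98 held it, or 23.5% (15.5 to 33.1%), at 68.7 to 7808 CPM with a median of 975. Of the depth-matched cells 47.5% held it, a difference of 40 percentage points, though 47.5% lies within the photoconverted interval. Among cells with at least 2788 genes, every photoconverted cell held Il5. So did every non-photoconverted cell that deep except those with 2804 and 3437 genes, so the difference came mostly from cells with fewer genes. Without matching the difference was 64 points, and with no limit on genes per cell 21.7. A rise of 20 points or more over depth-matched cells was found for 18.2% of the 3530 genes detected in at least 10 cells.

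A higher share of photoconverted cells held Il5, and those that did lay within the range of non-photoconverted positive cells of all depths. The median of positive cells was 743 CPM in photoconverted cells (442 to 3405) and 975 in non-photoconverted cells. These medians are not matched for depth. Among positive cells with at least 2788 genes, non-photoconverted cells stood at 68.7 to 975 CPM. The photoconverted cells that deep stood at 442, 543, 2732 and 3405, and the difference in level was not tested. The mean over all cells, positive or not, was 1161 CPM in photoconverted, 444 in all non-photoconverted and 278 in depth-matched cells. After each cell was drawn down to 1000 reads, the expected share of cells with a read of Il5 was 52.8% and 14.1% in all photoconverted and all non-photoconverted cells. A few cells held most of the transcript. The 3 highest non-photoconverted cells held 56% of the 13083 Il5 reads, and the 3 highest photoconverted cells 88.1% of 8056.

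Csf2 reached the limit in 6 of the 8 photoconverted cells (34.9 to 96.8%). In the same order these cells had 598, 0, 68.4, 33.4, 0, 730, 430 and 513 CPM. The photoconverted cells without Csf2 were the second, which has the highest red fluorescence of the 8, and the fifth, which also lacked Il5. Of the 98 non-photoconverted cells 36 held Csf2, or 36.7% (27.2 to 47.1%), at 28.2 to 1363 CPM with a median of 254, against a median of 471 in the positive photoconverted cells. The positive photoconverted cells lay within the range of the non-photoconverted ones. Of depth-matched cells 45% held it, a difference of 30 points. The difference fell under 20 points without the 2 photoconverted cells of lowest red fluorescence (16.7), with the limit at 1 read (15.0), 4 or 64 reads (17.5 each) and after drawing down to 1000 reads (12).

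Il13 was rare, and was found in non-photoconverted cells. It reached the limit in 8 of 98 of them, or 8.16% (3.59 to 15.5%), at 120 to 1807 CPM with a median of 307. In photoconverted cells the highest value was 1 read, and 0 of 8 cells is a count that allows a share of up to 37.5%. Of the depth-matched cells 20% held Il13, a difference of -20 points from 4 distinct cells. That difference was -8.16 without matching and -3.21 after drawing down, and -17.1 without photoconverted cell 1, 3, 4 or 7. A fall of 20 points or more was found for 9.69% of genes, and Il13 was outside those genes because it was detected in fewer than 10 cells. The non-photoconverted share lies under the limit that 0 of 8 cells allows, so a lower share in photoconverted cells was not detectable with 8 cells.

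**Figure D2:**
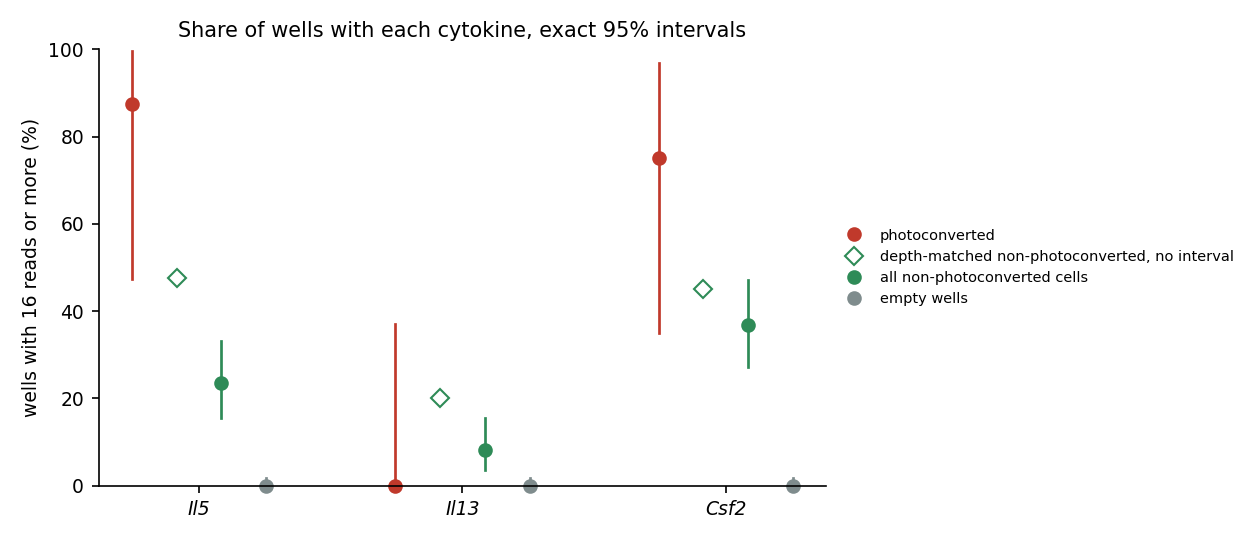
Share of wells with 16 reads or more of Il5, Il13 and Csf2 (vertical axis, percent) in photoconverted cells, depth-matched and all non-photoconverted cells, and empty wells, with exact 95% intervals as lines. Il5 stands at 87.5%, 47.5% and 23.5%, Csf2 at 75%, 45% and 36.7%, Il13 at 0%, 20% and 8.16%, and each is at 0 in empty wells.

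The shares differed along sequencing depth, unequally for the 3 genes. Non-photoconverted cells were put in 3 bins by the number of genes, 502 to 1194 (33 cells), 1220 to 2026 (33) and 2067 to 4480 (32). Il5 was detected in 9.09% (1.92 to 24.3%), 15.2% (5.11 to 31.9%) and 46.9% (29.1 to 65.3%) of these bins. Csf2 was detected in 6.06% (0.743 to 20.2%), 57.6% (39.2 to 74.5%) and 46.9% (29.1 to 65.3%), so its share did not differ beyond its intervals between the upper bins. Il13 was detected in 0 of 33, in 6.06% (0.743 to 20.2%) and in 18.8% (7.21 to 36.4%). Median genes were 2666 in Il5-positive against 1528 in Il5-negative cells, 1977 against 1207 for Csf2 and 2854 against 1569.5 for Il13. Cell size, RNA content and capture were not measured, and their part in these shares was not tested.

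Among non-photoconverted cells 15 of 23 with Il5 and 7 of 8 with Il13 held at least 1 other of the 3 cytokines, and 14 of 36 with Csf2 did. Of the 98 cells, 50 (51%, 40.7 to 61.3%) held none of the 3 genes, 31 held 1, 15 held 2 and 2 held 3. The most frequent pattern was Csf2 alone, in 22 cells, followed by Il5 with Csf2 in 10 and Il5 alone in 8. Il5 with Il13 was found in 3 cells, all 3 genes in 2, Il13 with Csf2 in 2 and Il13 alone in 1. Of the photoconverted cells 6 of 8 (34.9 to 96.8%) held Il5 with Csf2, 1 held Il5 alone and 1 held none, and the difference in makeup was not tested. In the 6 photoconverted cells with both genes the levels did not run in parallel. The cells highest in Il5, at 3405 and 2732 CPM, had the lowest Csf2 of the 6, at 68.4 and 33.4.

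Detection of Il5 and of Csf2 had no stable relation. Csf2 was detected in 12 of 23 Il5-positive cells (52.2%, 30.6 to 73.2%) and in 32% of all 75 Il5-negative cells. Against the 3 Il5-negative cells nearest in number of genes, of which 65.2% held Csf2, the difference was -13 points. Its direction depended on how depth was handled: it was 20.2 points without matching, 8.70 with matching on reads, 10.5 with the limit at 64 reads and -1.74 with the 5 nearest cells. Read the other way, Il5 was detected in 33.3% of Csf2-positive cells and in 31.5% of depth-matched Csf2-negative cells. Csf2 levels in its positive cells were 351 CPM at the median with Il5 (12 cells, 41.6 to 1363) and 245 without (24 cells, 28.2 to 1290), ranges that overlapped almost entirely.

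**Figure D3:**
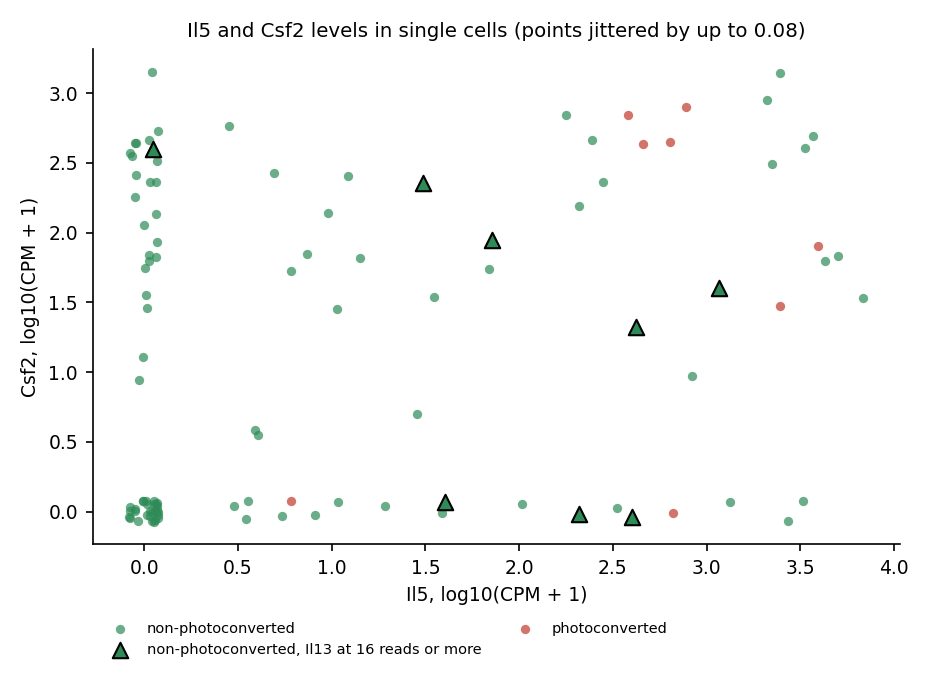
Levels of Il5 (horizontal) and Csf2 (vertical) in the 106 cells as log10(CPM + 1), jittered by up to 0.08, with cells that hold Il13 as triangles. Many cells lie along one axis with 1 of the 2 genes only, and the 8 Il13-positive cells, all non-photoconverted, stand at 0 to 975 CPM of Il5.

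Over cells of all depths, Il13 was found more often where Il5 was. It was detected in 5 of 23 Il5-positive cells (21.7%, 7.46 to 43.7%) and in 4% of all Il5-negative cells. Among Il5-negative cells matched for depth (30 distinct cells, with reuse) it was 1.45%, a difference of 20.3 points. All 5 cells with both genes had at least 2788 genes. The only Il5-negative non-photoconverted cells that deep had 2804 and 3437 genes, so depth was not fully matched there. Under 2788 genes, none of the 13 Il5-positive cells held Il13. The 3 Il13-positive cells without Il5 lay in that range, at 1946, 2011 and 2451 genes, so the relation did not hold at lower depth. A difference of 20 points or more was found for 13.3% of the genes detected in at least 10 cells, among which Il13 is not counted. The difference was 7.25 points with the limit at 1 read, 8.77 at 64 reads, 15.6 with both colours, 17.5 without the cells that held Cd3g and 17.7 without matching. From the other side, Il5 was detected in 5 of 8 Il13-positive cells (24.5 to 91.5%), with 45.8% among depth-matched Il13-negative cells. Between Csf2 and Il13 the difference was -0.926 points, with Il13 in 4 of 36 Csf2-positive cells (11.1%, 3.11 to 26.1%), with 12% among matched negative cells.

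The 5 cells with both Il5 and Il13 had 68.7, 213, 362, 388 and 975 CPM of Il5, and at least 2788 genes each. The 5 Il5-positive cells without Il13 that had at least as many genes stood at 91.0, 210, 228, 238 and 909 CPM, so the groups overlapped at like depth. The 13 Il5-positive cells with fewer genes, all without Il13, ran from 167 to 7808 CPM with a median of 2695. The cell with the highest Il13, at 1807 CPM, had the lowest Il5 of all positive cells, 68.7.

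Il4, the neighbour of Il13 on the chromosome, was found with Il13 in 4 of the 8 Il13-positive cells (15.7 to 84.3%), at 127, 160, 154 and 81.3 CPM. It was detected in 5 of the 90 Il13-negative cells (5.56%, 1.83 to 12.5%), and 12.5% of depth-matched Il13-negative cells had it, a difference of 37.5 points. A difference of 20 points or more was found for 18.4% of genes in that comparison. Of the 4 cells with Il13 and Il4, 1 held Il5 above the limit (68.7 CPM), and the other Il5 values were 0, 26.6 and 40.8. With Il5, Il4 was detected in 2 of 23 positive cells (8.7%, 1.07 to 28%), with 4.35% among the matched negative cells. Among photoconverted cells 3 of 8 held Il4 (8.52 to 75.5%), at 47 to 89.5 CPM, while Il13 was at 0 or 1 read in each. Il4 stayed at 0 reads in all 221 empty wells.

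**Figure D4:**
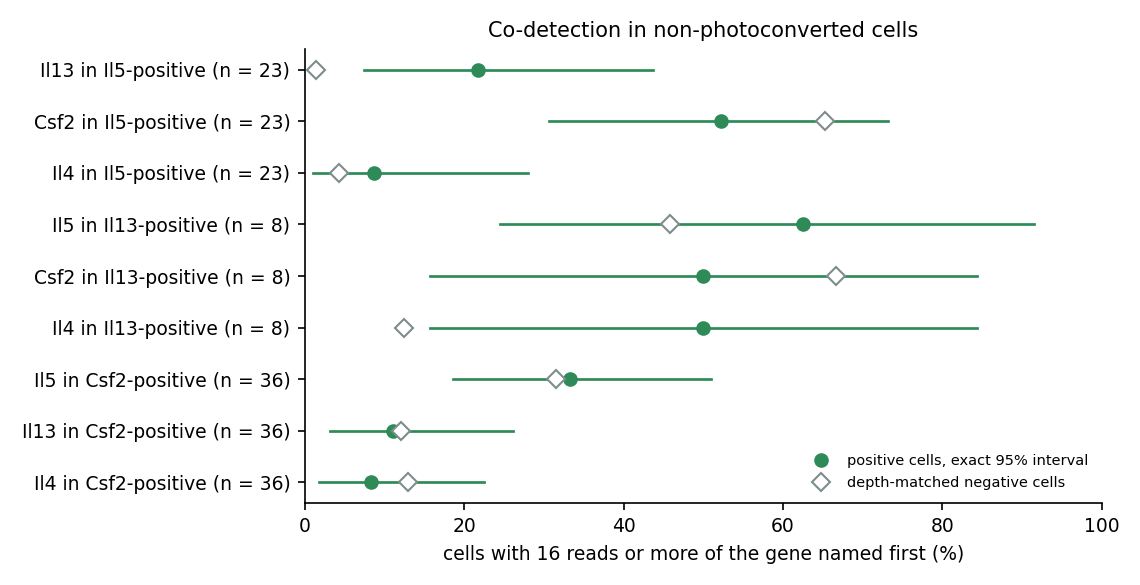
Share of non-photoconverted cells with 16 reads or more of the gene named first (horizontal axis, percent), in cells positive for the gene named second (filled, with exact 95% intervals) and in depth-matched cells negative for it (open). Il13 in Il5-positive cells and Il4 in Il13-positive cells stand above their open points, by 20.3 and 37.5 points, and Il5 in Csf2-positive cells by 1.85 points.

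The genes whose levels ran most like each cytokine were ranked over the 98 non-photoconverted cells by Pearson's r of log2(CPM + 10). The cells share 1 plate, and depth differs between them, so the values are a description. For Il5 the first of 2854 genes were Ddx18, an RNA helicase of ribosome biogenesis (r = 0.46), Ep400 and Frmd4b (0.43 each), Baz1a (0.42), Ubl5 (0.41) and Pdpk1, a kinase upstream of AKT (0.40). Baz1a, a chromatin remodelling subunit, was detected in 18 of the 23 Il5-positive cells. Areg, which encodes amphiregulin, stood 49th at 0.30. Csf2 stood 371st at 0.19, and Il13 reached 0.18.

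For Csf2 the first gene was Calca, from which the neuropeptide CGRP is made, at r = 0.36. Calca was detected in 21 of the 36 Csf2-positive cells and in 37 of all 98. It was followed by Cdk8 and Pitpna (0.35 each), Eif4a1, Cds2 and Dynlt3 (0.34 each). For Il13 they were Nadk (0.40), Topbp1, Eaf1, Lztfl1, Rbmxl1 and Txndc12 (0.38 each), a ranking that rests on 8 positive cells. These r values are low, and they include cells at 0 for both genes.

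Other secreted factors were compared with the same measures. In photoconverted against depth-matched cells, 4 of 6 measured genes of that list were 20 points or more higher and 0 lower, with a median of 28.8 points against 2.5 over all genes, of which 18.2% were higher. They were Lif (37.5 points), Cxcl2, a neutrophil chemokine (37.5), Calca (32.5) and Il4 (25). In Il5-positive cells 1 of 6 was higher and 0 lower, against 13.3% and 7.28% of all genes. It was Areg, detected in 20 of 23 Il5-positive cells against 56.5% of depth-matched Il5-negative cells (30.4 points). In Il13-positive cells 2 of 6 were higher, Il4 and Areg, and 2 lower, Lif and Csf1, against 18.4% and 15.0% of all genes. All 8 Il13-positive cells held Areg, against 66.7% of their matched cells. Lif was in 12.5% against 50%, and 0 of 8 held Csf1, the macrophage growth factor, against 58.3%.

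Receptors that induce the cytokines differed in both directions. In photoconverted cells 2 of 10 measured receptors were higher and 3 lower by 20 points, against 18.2% and 9.69% of all genes. The higher ones were Il17ra, in 37.5% against 17.5%, and Il2rb, in 50% against 30%. The lower ones were Icos, in 50% against 70%, Il17rb, the interleukin-25 receptor, in 1 of 8 cells against 57.5% and Il7r, which binds the survival factor interleukin-7, in 4 of 8 against 87.5%. In Il5-positive cells 3 were higher and 1 lower, against 13.3% and 7.28% of all genes. Of these Icos, a costimulatory receptor, was in 73.9% against 27.5%, Tnfrsf18, which encodes GITR, in 73.9% against 37.7%, Il17ra in 21.7% against 1.45% and Tnfrsf25, which encodes DR3, in 17.4% against 39.1%. In Csf2-positive cells Il1rl1 was detected in 32 of 36 (88.9%) against 67.6%, where 1.9% of all genes were higher and 2.44% lower by that margin. In Il13-positive cells 2 were higher and 4 lower, with Il1rl1 in 75% against 95.8%, Il7r in 50% against 91.7% and Icos in 87.5% against 62.5%. In that comparison 18.4% of all genes were higher and 15.0% lower.

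Among transcription factors, Gata3 was detected in 23 of 23 Il5-positive, 34 of 36 Csf2-positive and 8 of 8 Il13-positive cells. Of 22 measured factors, 2 were higher and 2 lower by 20 points in Il5-positive cells, near the 13.3% and 7.28% of all genes. Bcl11b, a factor needed for ILC2 identity, was in 78.3% against 31.9% and Xbp1, a factor of secretory cells, in 39.1% against 17.4%. Maf was in 17.4% against 60.9% and Fosb, an AP-1 subunit, in 34.8% against 68.1%. In photoconverted cells 3 of 22 were higher and 2 lower (18.2% and 9.69% of all genes), with Xbp1 in 6 of 8 against 37.5% and Bcl11b in 4 of 8 against 80%. In Csf2-positive cells 1 of 22 was higher and 0 lower, where 1.9% of all genes were higher and 2.44% lower. It was Xbp1, at 38.9% against 15.7%. In Il13-positive cells 3 were higher and 6 lower (18.4% and 15.0% of all genes). There Xbp1 was in 0 of 8 cells against 45.8% and Maf in 0 of 8 against 41.7%. Fosb was in 25% against 75% there, and Egr1, an immediate early factor, in 62.5% against 29.2%.

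In the signalling list, 4 of 19 measured genes were higher and 1 lower in Il5-positive cells, against 13.3% and 7.28% of all genes. Jak3, a kinase of the common gamma chain receptors, was in 13% against 50.7%, and Stat3 in 60.9% against 40.6%. Stat3 was lower in Csf2-positive cells, at 41.7% against 62%, and Map2k3, a kinase upstream of p38, was higher, at 30.6% against 7.41%, where 1.9% of all genes were higher and 2.44% lower. In photoconverted cells Lcp2, the adaptor SLP-76, was in 8 of 8 against 45%, with 2 of 19 higher and 1 lower, against 18.2% and 9.69% of all genes. In Il13-positive cells 2 were higher and 4 lower, against 18.4% and 15.0%, with Jak2 in 62.5% against 29.2%.

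Feedback inhibitors and mRNA decay factors include genes found in most cells. Zfp36, which binds AU-rich elements, was detected in 90 of 106 cells, Tnfaip3, an inhibitor of NF-kB signalling, in 88 and Nfkbia in 98. In Csf2-positive cells, whose transcript carries the longest ATTTA run of the 3, 1 of 18 measured genes was 20 points higher and 0 lower, against 1.9% and 2.44% of all genes. It was Tnfaip3, at 97.2% against 76.9%. In Il5-positive cells 0 of 18 were higher and 1 lower, against 13.3% and 7.28% of all genes. The lower gene was Cish, an inhibitor of STAT5 signalling, at 47.8% against 72.5%. In photoconverted cells 2 were higher, Dusp10 at 62.5% against 10% and Socs2 at 75% against 42.5%, and 0 lower, where 18.2% and 9.69% of all genes were. In Il13-positive cells 1 was higher and 5 lower, against 18.4% and 15.0% of all genes, with Socs2 in 25% against 70.8%.

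Genes of the secretory pathway were higher in photoconverted cells for 8 of 18 measured and lower for 0, with a median of 16.3 points against 2.5 over all genes, of which 18.2% were higher and 9.69% lower. Manf and Srp19 were each in 6 of 8 cells against 25%, Sec61a1, the core of the translocation channel, in 6 of 8 against 37.5%, and Canx, a folding chaperone, in 7 of 8 against 57.5%. In Il5-positive cells 5 of 18 were higher and 0 lower, with a median of 12.3 points against 2.9 over all genes, of which 13.3% were higher, led by Pdia3, a protein disulfide isomerase (52.2% against 26.1%). Both comparisons draw on the same non-photoconverted cells. In Csf2-positive cells 1 of 18 was higher, with a median of 0.463 points against 0 (1.9% of all genes were higher), and in Il13-positive cells 4 were higher and 2 lower, against 18.4% and 15.0% of all genes. Among growth and activation genes 3 of 18 were higher in photoconverted, 2 in Il5-positive, 1 in Csf2-positive and 6 in Il13-positive cells, where 18.2%, 13.3%, 1.9% and 18.4% of all genes were. In the same order 0, 0, 1 and 1 were lower, against 9.69%, 7.28%, 2.44% and 15.0%. Gapdh was in 8 of 8 Il13-positive cells against 58.3%.

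The genes nearby on the chromosome did not all follow the cytokines. Of 11 listed neighbours 4 were measured. In photoconverted cells 2 were higher and 0 lower, with a median of 16.3 points, where 18.2% of all genes were higher and 9.69% lower. They were Il4 and Sept8, a septin gene (50% against 25%). In Csf2-positive cells Rad50, a DNA repair gene between Il13 and Il5, was lower, at 8.33% against 32.4%, as were 2.44% of all genes. In Il5-positive cells 0 of 4 were 20 points higher or lower, against 13.3% and 7.28% of all genes. In Il13-positive cells Il4 and Irf1 (62.5% against 37.5%) were higher, as were 18.4% of all genes. Receptors for the cytokines themselves were scarce: Il5ra was detected in 0 of 106 cells (a count that allows up to 2.83%), Csf2ra in 4, Csf2rb2 in 2 and Il4ra in 23. Il4ra was in 5 of 8 photoconverted cells against 12.5% of depth-matched cells.

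Markers of other cytokine-making cells were looked for in the same cells. Of the 10 T cell markers 4 were among the named gene rows, and the others could not be measured. At least 2 were detected in 3 of 106 cells. At least 1 was found in 2 of 8 photoconverted, 2 of 23 Il5-positive, 1 of 8 Il13-positive and 4 of 36 Csf2-positive cells. Their summed level was 0 to 327 CPM in photoconverted and 0 to 2126 in non-photoconverted cells, with Cd3e at 0 reads of 16 or more in every cell. Of the 11 mast cell or basophil markers only 2 were among the named rows, Kit and Hdc, and both together were detected in 2 cells. At least 1 of them was found in 5 of 8 photoconverted and 24 of 98 non-photoconverted cells, at a summed 0 to 858 and 0 to 3284 CPM. Kit alone was in 62.5% of photoconverted against 32.5% of depth-matched cells. Of 5 myeloid markers 2 were among the named rows. Cst3 was in 6 of 8 photoconverted cells against 40% of depth-matched cells, in 6 of 8 Il13-positive cells against 45.8%, and in 27.8% of Csf2-positive cells against 55.6%. The summed myeloid level was 0 to 937 CPM in photoconverted and 0 to 2552 in non-photoconverted cells. Of 4 B cell markers 1 was among the named rows, and of 9 markers of other innate lymphoid or NK cells 3 were. The B cell marker was found in 5 cells and at least 1 of the others in 7, all non-photoconverted. Without the 11 cells that held Cd3g, the differences between photoconverted and depth-matched cells were 33.3 points for Il5, 40.0 for Csf2 and -26.7 for Il13. The part of the remaining markers in the results was not tested.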

How the data were processed

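The deposited files are raw read counts for each gene and well, made by the authors, and a sort record with each well's colour and its red fluorescence in arbitrary units. Tools named in the submitters' processing notes are STAR, STARsolo and edgeR, and the build is mm10. The notes used here give neither versions nor roles. Values are reads, not molecular identifiers. On plate 1 (52614294 reads), rows named as spike-ins held 43.2% and mitochondrial rows 5.63% of reads. On plates 2, 3 and 4 mitochondrial rows held 0.0531%, 0.0110% and 0.0204% and spike-in rows 0.113%, 44.1% and 21.7%. Row names were used on plate 1 only because of the mitochondrial rows, since the spike-in rows of plate 3 are like those of plate 1.

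Spike-ins were left out. Shares, CPM, matching and exact intervals were computed with Python 3.11.15, pandas 2.3.3 and scipy 1.17.1. Matching allowed reuse of cells (5 per photoconverted cell, 3 per cytokine-positive cell). Genes detected in at least 10 of the 106 cells gave the background. The share and ranking measures were tested on simulated data. No doublet caller was run on sorted single cells. Most list genes named are of the 3 of highest mean level or at least 20 points apart, and not all such genes are named. The 6 most alike genes per cytokine are named. Members and lists were chosen with earlier results of these data known. Alternatives were other read limits, gene limits, matchings, left-out cells and log2 means with 10 or 1 added.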

Additional observations from a re-analysis of the deposited data

Results flagged for a closer look

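Cytokine transcript was also present in sorted wells that the comparisons leave out. Of the 57 sorted wells below the filter (median 209 genes), 3 (5.26%, 1.1 to 14.6%) held Il5 at 16 reads or more, with 26, 35 and 288 reads, against 0 of 221 empty wells. Csf2 reached the limit in 2 of these wells (3.51%, 0.428 to 12.1%), and Il13 in 0.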

How the results depend on the processing

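The differences between colours for Il5 and Csf2 kept their direction under all 22 alternatives tried. That for Il13 did as well, but no photoconverted cell held more than 1 read of it. Its direction was therefore all but fixed in advance. The Il5 difference, 40 points, was 64 without matching and otherwise 21.7 to 45.7. Csf2 ranged from 12 to 41.7 and Il13 from -26.7 to -3.21. As differences in mean log2(CPM + 10) from depth-matched cells they were 3.44, 1.61 and -1.25. Leaving out each photoconverted cell in turn gave 34.3 to 45.7 points for Il5, 22.9 to 40.0 for Csf2 and -22.9 to -17.1 for Il13. Of 10 alternatives per pair, Il5 with Il13 kept its direction in 10 (7.25 to 29.5 points), Il5 with Csf2 in 7 (-19.0 to 20.2, the last without matching) and Csf2 with Il13 in 5 (-9.26 to 4.66). A limit of 4 reads and leaving out cells with Cd3g were added after the data were seen. No paired analysis was possible because the plates form 1 group and named genes exist for 1 plate. With 8 photoconverted cells, a share of 0 allows up to 37.5%.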

Other observations

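Markers of division were counted beside Il5, a comparison chosen after the values were seen. Of the 8 non-photoconverted cells with at least 1 of Mki67, Top2a, Birc5, Ccnb1 and Ccna2, 6 held Il5, among 23 Il5-positive and 75 Il5-negative cells. Both cells with at least 3 of these markers held Il5, and 1 of them held Il13. Neither held Csf2. In photoconverted cells 0 of 8 held any of these markers. Il5-positive cells also had more genes, and the part of depth was not tested.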
